A study of Mus musculus with 55 samples.

Results

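Cort, which encodes cortistatin, and 7 other neuropeptide genes of hippocampal interneurons (Sst, Npy, Vip, Cck, Tac1, Tac2 and Crh) were followed by gene symbol in the dorsal hippocampus of mice with intact Cnih3 (wild type, WT) or with Cnih3 knocked out (KO). These are 8 of the 55487 genes in the count table, and all 8 passed the filter on low counts that left 16168 genes for testing. Cort was chosen by its lower count in KO than in WT, so its genotype difference is described here without a test, and tests are given for its change over the estrous cycle and for the other 7 genes.

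RNA from 1 dorsal hippocampus per mouse was sequenced for 55 mice. Females were staged by vaginal cytology, and the groups held 4 WT and 5 KO mice in metestrus, 6 WT and 6 KO in diestrus, 5 WT and 4 KO in proestrus, 7 WT and 6 KO in estrus, and 5 WT and 7 KO males. The KO lacks exon 4 of Cnih3, an auxiliary subunit of AMPA-type glutamate receptors, in every cell of the body, on a C57BL/6J background, and the line came from a single knock-out allele first made in C57BL/6N cells. Ages ran from 10.86 to 23.71 weeks with a median of 16.86. An RNA integrity number under 8 was listed for 2 libraries, both from WT proestrus mice. The study lists all 28 KO mice and 11 WT mice under Cnih3 × B6 parents, which stands for matings within the mutant line, and the other 16 WT mice under B6 × B6 parents. Each mouse is 1 replicate. The p-values set a difference between groups against the spread between mice, which the model estimates from all 10 groups together.

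Neuropeptides are cut from larger precursors, packed into dense-core vesicles and released on strong firing to act on G protein-coupled receptors. In the hippocampus their genes label families of GABAergic interneurons. Somatostatin and neuropeptide Y are made by dendrite-targeting cells, vasoactive intestinal peptide by cells that inhibit other interneurons, and cholecystokinin by basket cells and, more weakly, by pyramidal cells. Cortistatin is a relative of somatostatin that binds the same receptors and is known for depressing cortical activity and promoting slow-wave sleep. Tac1 encodes substance P and neurokinin A, Tac2 encodes neurokinin B, and Crh encodes corticotropin-releasing hormone.

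The kinship of cortistatin and somatostatin can be read in the last coding bases of both genes, which encode the carboxy-terminal ends of the peptides. They are shown because reads from such similar stretches are the ones a counter could assign to the wrong gene. In the lines that follow (GRCm38, minus strand for both genes, 5′ to 3′, Cort at chr4:149125267-149125308 and Sst at chr16:23889732-23889773), capitals mark the bases that are identical in the alignment.
Cort: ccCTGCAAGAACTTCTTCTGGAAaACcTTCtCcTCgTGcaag
Sst: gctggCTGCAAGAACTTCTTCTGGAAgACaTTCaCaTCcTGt
Of 39 aligned bases 31 were identical (79.5%), and the longest identical run was 21 bases. The counts hold uniquely aligned reads only, and the genes lie on different chromosomes. Neither gene's exons, nor those of the other 6 genes, overlapped an exon of another annotated gene.

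Sst is the textbook gene of the cAMP response element (CRE), the site of the activity-dependent factor CREB, and its CRE is shown beside the 250 bases upstream of Cort because both genes were compared over the same mice. Sequences are from RefSeq promoters on GRCm38.p6, 5′ to 3′ on the minus strand. Capitals mark the full CRE TGACGTCA in Sst (30 bases at chr16:23890874-23890903) and the CRE core TGACG, here on the opposite strand, in Cort (chr4:149126764-149127013).
Sst: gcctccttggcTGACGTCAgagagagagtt
Cort: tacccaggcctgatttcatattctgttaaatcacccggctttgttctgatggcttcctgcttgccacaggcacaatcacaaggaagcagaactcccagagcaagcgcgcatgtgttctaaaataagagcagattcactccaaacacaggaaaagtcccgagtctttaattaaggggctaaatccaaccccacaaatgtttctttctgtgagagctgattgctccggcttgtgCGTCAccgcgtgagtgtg
Promoter entries matched 7 of the 8 genes. On both strands of these 250 upstream bases the core TGACG occurred once in Cort, Vip and Cck, at 2 places in Tac1 and not in Npy or Tac2, and the Sst matches lie inside its full CRE. The full CRE was in 508 of 32851 promoters of the same length (1.55%) and the core in 5836 (17.8%). The core in Cort ended 13 bases before the annotated start.

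Library totals ran from 25881295 to 63547098 counts. Cnih3 itself ranged from 21.6 to 62.5 CPM (counts scaled to a common library size with TMM factors, the scale of all CPM here) in WT and from 21.6 to 47.8 in KO, which differed by -0.34 on the log2 scale (SE 0.08, limma FDR = 0.00692), where the gene count includes the exons that the KO keeps. All libraries carried hippocampal RNA, with a summed level of 6 pyramidal markers from 829 to 1190 CPM (Neurod6 the highest) and of 6 dentate granule markers from 174 to 316, and 26 interneuron genes summed to 1010 to 1330 CPM with Gad1 at 223 to 475. Of other tissues, 8 choroid plexus markers ran from 22.2 to 2230 CPM (Ttr 3.83 to 2100), and 6 pituitary markers ran from 0.719 to 238 (Prl 0.0932 to 140, with Lhb and Fshb at a median of 0 counts). Sums were 31.7 to 123 for striatum (Ppp1r1b 16.3 to 102), 84 to 182 for neocortex (Rorb the highest), up to 166 for thalamus (Rora), 17.4 to 29.1 for medial habenula (Nwd2), 8.55 to 51.8 for ventral hippocampus (Dcn) and 3.86 to 39.5 for hypothalamus (Pomc). Glial sums ran from 2950 to 6610 for oligodendrocytes (Mbp), 1660 to 3660 for astrocytes (Aldoc) and 108 to 196 for microglia (P2ry12).

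KO estrus mouse 1 stood apart. Its Npy was 406 CPM, against 78.7 to 256 in the other 54 libraries, its Tac2 was 9.66 CPM against 1.53 to 6.01, and its Cort was 2.02 CPM against 3.87 to 21. The same library held 255 CPM of Penk, the enkephalin precursor, against 18.1 to 51.1 elsewhere, 357 CPM of Bdnf against 78 to 152, 76.6 CPM of Fosb against 3.88 to 12.2, and 1970 CPM of the astrocyte gene Gfap against 171 to 431. Npas4, an immediate early gene of neuronal firing, was lowest there at 1.37 CPM, against 1.68 to 12.8. Other libraries also stood apart, namely 12 with Cyc1, a mitochondrial complex III gene, under 150 CPM and 8 with the nuclear RNA Malat1 under 500 CPM, of which 7 were in diestrus.

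Per kilobase of exon, Sst was the most abundant of the 8 transcripts at 342 ± 80.1 CPM per kb (mean ± SD, n = 55), followed by Npy at 224 ± 89 and Cck at 194 ± 76.8. Cort came next at 14.3 ± 6.51 CPM per kb, then Tac1 at 3.32 ± 0.813, Vip at 2.92 ± 0.64, Tac2 at 2.58 ± 0.933 and Crh at 0.508 ± 0.389. On this scale the clear steps were the same in nearly every library. Npy was below Sst in 54 of 55, Cort below Cck in 55 of 55 and Tac1 below Cort in 55 of 55. Neighbours within the other levels did not separate, since Cck lay below Npy in 24 libraries, Vip below Tac1 in 36 and Tac2 below Vip in 37 of 55. The order depends on the length used, which merges the exons of all annotated transcripts (677 bases for Cort, 3399 for Tac1, 3402 for Vip). Without division by length, mean CPM was higher for Tac1 (11.3) and Vip (9.94) than for Cort (9.68). It was also higher for Cck (253) than for Sst (247). Crh was the thinnest measurement, with 3 to 94 counts per library, while Cort had 97 to 1006 and Sst 5430 to 20042.

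Cort, the gene that defined the set, was lower in KO in all 5 groups. In metestrus the 4 WT mice had 14.4, 16.8, 14 and 11.8 CPM and the 5 KO mice 5.59, 5.86, 4.62, 8.81 and 5.87 CPM. In proestrus the 5 WT mice had 12.1, 10.2, 10.7, 17.6 and 21 CPM and the 4 KO mice 9.4, 8.72, 7.31 and 12.5 CPM. The metestrus values of the genotypes did not overlap, whereas in proestrus the highest KO mouse lay above 3 of the WT mice.

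For the larger groups, WT diestrus ran from 5.24 to 17.2 CPM of Cort with a median of 12.2 and KO diestrus from 3.87 to 7.29 with a median of 5.38. WT estrus ran from 9.56 to 17.6 CPM with a median of 11.9 and KO estrus from 2.02 to 6.39 with a median of 4.89. The 5 WT males had 12.2, 7.3, 10.9, 16.9 and 15 CPM, and the 7 KO males ran from 4.59 to 9.39 with a median of 7.3. Estrus, like metestrus, showed no overlap, and in diestrus and in males a single low WT mouse (5.24 and 7.3 CPM) lay within the KO range. Genes with KO wholly below WT made up 1.06% of all tested genes in metestrus, 0.285% in estrus, 0.0619% in diestrus, 0.111% in males and 1.01% in proestrus, which gives the background for these 2 groups without overlap.

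**Figure D1:**
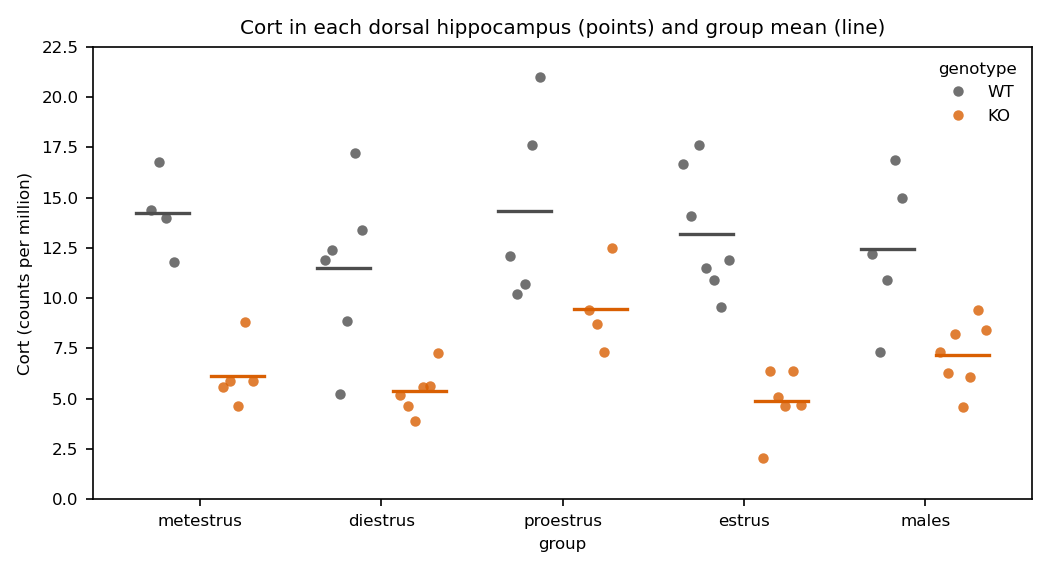
Level of Cort (CPM, linear axis) in each of the 55 mice, by stage or sex and genotype, with each point a mouse and lines marking group means. The KO mice lie below every WT mouse in metestrus and estrus, and the KO proestrus mice lie at 7.31 to 12.5 CPM.

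As fitted differences the KO minus WT change of Cort ranged from -0.46 (SE 0.22) in proestrus to -1.39 (SE 0.21) in estrus and was -0.82 (SE 0.22) in males, -1.04 (SE 0.23) in diestrus and -1.21 (SE 0.21) in metestrus, all on the log2 scale. Averaged over the 5 groups it was -0.99 (SE 0.1), a ratio of KO to WT of 0.505. RNA came from bulk dorsal tissue, so fewer Cort-expressing cells and less Cort RNA per cell cannot be told apart. These values used the contrast that put Cort in the set, so no test goes with them, and the average without KO estrus mouse 1 was -0.97.

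Cort per Sst read was lower too, as a description, at 2.24 to 7.55 Cort reads per 100 Sst reads in WT (mean 5.13 ± 1.32, n = 27) and 1.01 to 3.91 in KO (mean 2.75 ± 0.634, n = 28). In proestrus the ratio was 5.64 ± 1.22 (n = 5) in WT and 3.26 ± 0.215 (n = 4) in KO, and in estrus 4.82 ± 1.06 (n = 7) and 2.39 ± 0.947 (n = 6).

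The genes beside Cort on chromosome 4 were examined for the same contrast. Cort lies at chr4:149125034-149126763 on the minus strand (GRCm38), and the 3′ end of Cenps, a kinetochore protein gene on the same strand, is 0.357 kb upstream of its start. Cenps averaged 6.11 CPM and was lower in KO over all mice by a smaller margin (log2 -0.24, SE 0.07, limma FDR = 0.0409), although in no single group was it called (FDR from 0.517 in diestrus to 0.944 in estrus and in males). Dffa, a DNA fragmentation factor gene 4.39 kb away, differed by 0.05 (FDR = 0.382) and Pex14, a peroxisome import gene 25.2 kb away, by -0.04 (FDR = 0.766). The nearby Rpsa-ps12 is a pseudogene whose reads may come from its parent gene, and it differed by -0.11 (FDR = 0.604).

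Npy, a peptide of somatostatin cells and neurogliaform cells that dampens excitatory transmission, was the only other member called between genotypes over all mice. The 27 WT mice ran from 92 to 256 CPM with a median of 137, and the 28 KO mice from 78.7 to 406 with a median of 105. In the fit over all mice KO differed from WT by -0.33 (log2, SE 0.08, ratio 0.796, limma FDR = 0.00864), and over females by -0.34 (SE 0.09, FDR = 0.0226). Background rates for these comparisons were 3.4% of all genes called over all mice (1.9% lower) and 1.97% over females (1.1% lower), and of the 7 members other than Cort 1 was called lower and none higher in each.

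By stage, the 4 WT metestrus mice had 151, 162, 151 and 137 CPM of Npy and the 5 KO metestrus mice 94.9, 92.6, 78.7, 126 and 106 CPM. WT diestrus ran from 93.7 to 188 with a median of 137 and KO diestrus from 82.9 to 111 with a median of 103. WT estrus ran from 111 to 178 with a median of 131, and the 6 KO estrus mice from 80.8 to 406 with a median of 96.7. KO metestrus lay wholly below WT, as it did for 1.06% of all tested genes. Diestrus overlapped. In estrus 5 KO mice were at 113 CPM or less, while KO estrus mouse 1 was above every other mouse of the study.

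In proestrus Npy was at 102, 92, 106, 139 and 256 CPM in WT and 138, 123, 121 and 166 CPM in KO, with means of 139 and 137. WT males had 138, 102, 115, 141 and 110 CPM and KO males ran from 79.2 to 159 with a median of 98.7, so that both of these comparisons overlapped broadly. Within single groups Npy was not called, with log2 differences of -0.59 in metestrus (limma FDR = 0.265), -0.48 in estrus (FDR = 0.198), -0.51 in diestrus (FDR = 0.517), -0.3 in males (FDR = 0.968) and 0.24 in proestrus (FDR = 0.583). Leaving out WT diestrus mouse 3 gave -0.53 in diestrus, which was then called (FDR = 0.0403). Leaving out KO estrus mouse 1 gave -0.62 in estrus, which was then called (FDR = 0.0212), and -0.36 over all mice (FDR = 0.000274). The call over all mice held in each of the 55 fits without 1 library but was lost with edgeR (-0.25, FDR = 0.452) and DESeq2 (-0.24, FDR = 0.487) and without the 8 libraries low in Malat1 (-0.31, FDR = 0.055), and the call over females was lost without KO proestrus mouse 2 (-0.32, FDR = 0.0645).

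**Figure D2:**
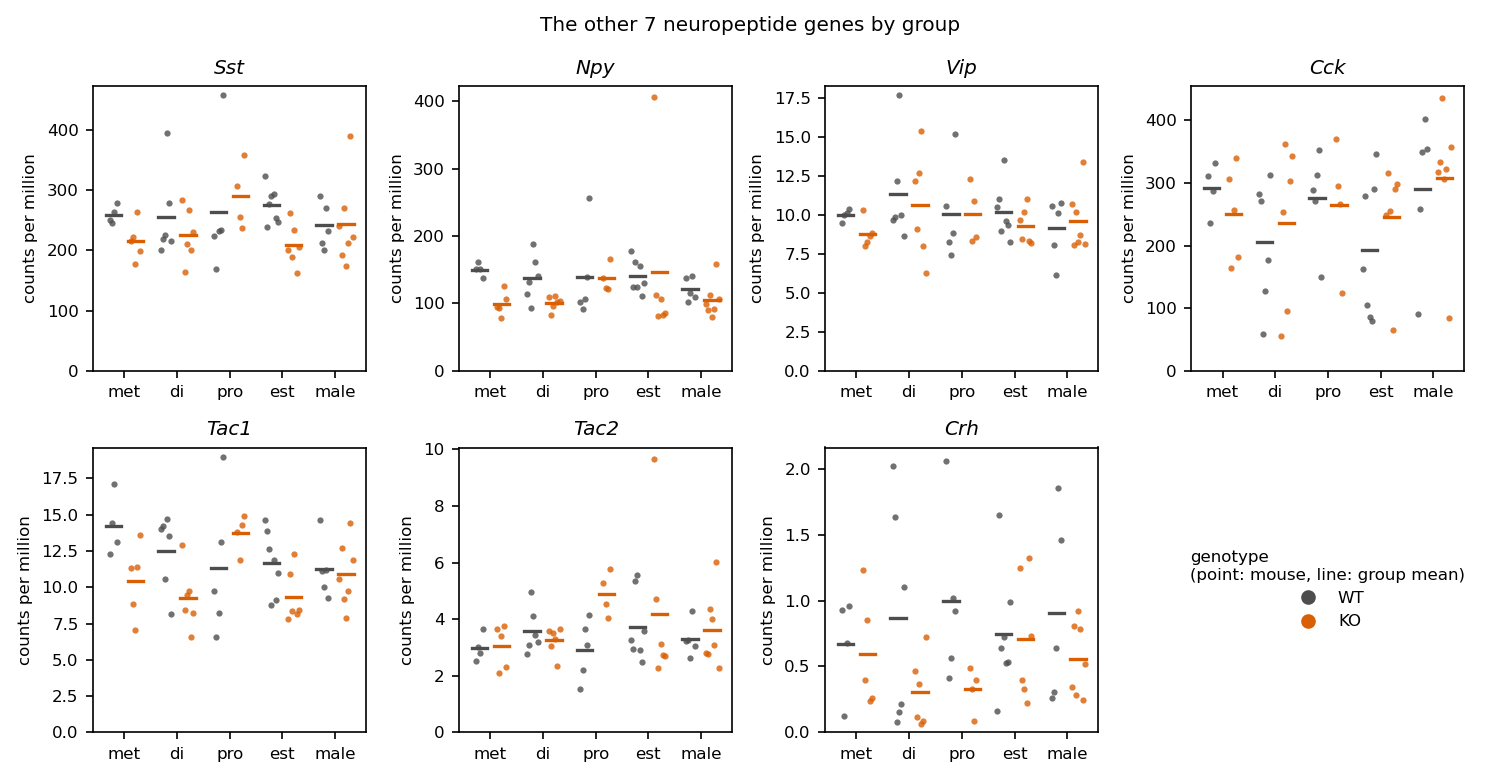
Levels of the 7 neuropeptide genes other than Cort (CPM, linear axes) by group and genotype, with each point a mouse and lines marking group means. Npy lies lower in KO in metestrus (78.7 to 126 CPM against 137 to 162), KO estrus mouse 1 lies far above its group in Npy and Tac2, and Cck splits into a low and a high set of mice in both genotypes.

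Sst, the precursor of somatostatin, ran from 169 to 458 CPM in WT (median 247) and from 163 to 390 in KO (median 222). In estrus the 7 WT mice ran from 238 to 323 with a median of 277 and the 6 KO mice from 163 to 262 with a median of 202, with overlap only between 238 and 262. In proestrus the 5 WT mice had 224, 169, 232, 233 and 458 CPM and the 4 KO mice 306, 256, 237 and 359, so that KO exceeded 4 of the 5 WT mice. No comparison called Sst between genotypes. Its fitted log2 differences were -0.42 in estrus (SE 0.13, limma FDR = 0.166), 0.3 in proestrus (SE 0.15, FDR = 0.378) and -0.15 over all mice (FDR = 0.193). Among mice of Cnih3 × B6 parents alone, where all 28 KO and 11 WT mice remain, the difference over all mice was -0.37. Metestrus, proestrus and estrus each kept 1 WT mouse in that fit, so only the size is given.

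Tac1, whose tachykinins act on the NK1 and NK2 receptors, had the same signs as Sst in all 5 groups. The 4 WT metestrus mice had 12.3, 14.4, 17.1 and 13.1 CPM and the 5 KO metestrus mice 11.3, 8.85, 7.02, 11.4 and 13.6. In proestrus the WT mice had 9.75, 6.56, 8.23, 13.1 and 19 CPM and the KO mice 13.8, 11.9, 14.3 and 14.9. The KO values lay mostly below WT in metestrus and mostly above it in proestrus, with overlap in both. The fitted differences were 0.49 in proestrus (limma FDR = 0.218), -0.44 in metestrus (FDR = 0.415), -0.47 in diestrus (FDR = 0.517), -0.36 in estrus (FDR = 0.337), -0.02 in males (FDR = 0.994) and -0.16 over all mice (FDR = 0.268). Among mice of Cnih3 × B6 parents alone, with 1 WT mouse each in metestrus, proestrus and estrus, the difference over all mice was -0.32.

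Tac2, the neurokinin B precursor known in the hypothalamus for its part in the control of gonadotropin release, had its largest genotype difference in proestrus. There the 5 WT mice had 1.53, 2.22, 3.64, 3.09 and 4.16 CPM and the 4 KO mice 5.27, 4.52, 4.04 and 5.78. All but 1 KO mouse exceeded every WT mouse, and the fitted difference was 0.82 (SE 0.25, limma FDR = 0.128). It was called without WT proestrus mouse 4 (1.06, FDR = 0.0343), and over all mice the difference was 0.06 (FDR = 0.833). The genotypes overlapped in each of the other groups.

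Vip and Crh were not called between genotypes in any group. Vip, the peptide of interneuron-selective cells, ran from 6.16 to 17.7 CPM in WT and from 6.31 to 15.4 in KO, with a difference over all mice of -0.03 (limma FDR = 0.892). Crh, the stress peptide, ran from 0.0821 to 2.06 CPM in WT (median 0.676) and from 0.0624 to 1.32 in KO (median 0.399). The Crh difference over all mice was -0.61 (SE 0.3, FDR = 0.284), or -1.08 and called without the 12 libraries low in Cyc1 (FDR = 0.0252), and in diestrus it was called when WT diestrus mouse 3, 4 or 5 was left out (-2.53, -2.51 and -2.4, FDR = 0.0208, 0.0274 and 0.0432). At 3 to 94 counts a library the error on Crh is the widest of the set.

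Over the 5 single groups the 7 members other than Cort gave 0 calls by limma, edgeR or DESeq2, against limma calls of 0.315% of all genes in proestrus, 0.179% in estrus, 0.0247% in metestrus, 0.00619% in males and 0% in diestrus. At an unadjusted p under 0.05 limma had Npy and Tac1 in metestrus, and Tac1 and Tac2 in proestrus. Sst, Npy and Tac1 were under that cut in both diestrus and estrus, and none of the 7 in males. All genes under the same cut numbered 2214 of 16168 for proestrus, 1896 for estrus, 1457 for metestrus, 1321 for diestrus and 845 for males. The genotype by group test (a moderated F test in limma over all genes) called 0 of the 7 members other than Cort and 0% of all genes (961 of 16168 at an unadjusted p under 0.05), with Tac1 (FDR = 0.74), Sst (FDR = 0.8), Tac2 (FDR = 0.806) and Npy (FDR = 0.806) at an unadjusted p under 0.05.

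**Figure D3:**
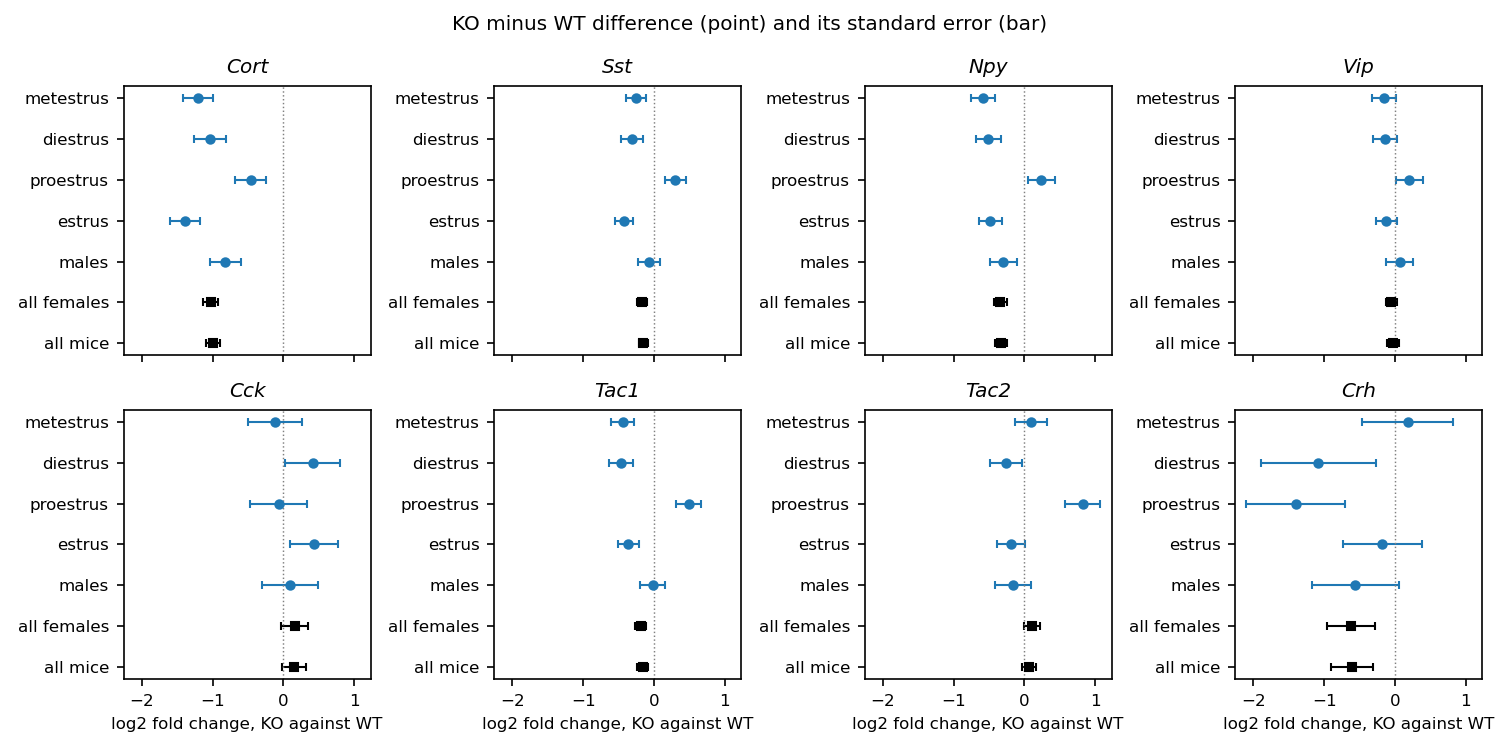
KO minus WT difference (log2, points, with its standard error as the bar) of each of the 8 genes in each group, and averaged over all females and all mice (squares). Cort is below 0 in all 5 groups. In proestrus Sst, Npy, Vip, Tac1 and Tac2 lie above 0, at 0.2 to 0.82, and in the other 4 groups at or below 0.09. Cort (-0.46), Cck (-0.07) and Crh (-1.4) lie below 0 in proestrus. Apart from Cort, which was not tested here, no gene of the 8 was called in proestrus.

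Across the 4 stages, Cort and Tac1 were the members called in KO females. For Cort in KO the medians were 9.06 CPM in proestrus, 5.86 in metestrus, 5.38 in diestrus and 4.89 in estrus, and the F test over the stages gave FDR = 0.0122 (limma). For Tac1 in KO they were 14, 11.3, 8.96 and 8.37 CPM in the same order, with FDR = 0.0178. Both genes had their highest KO median in proestrus, and no hormone was measured in these mice. Median ages of the KO mice in the same order of stages were 13.3, 18.71, 12.43 and 16.29 weeks. Sst (FDR = 0.0514) and Tac2 (FDR = 0.0525) fell just short, and 36.7% of all genes were called in this test, so that 2 of 8 members is no more than the background. Without KO estrus mouse 1, Npy (FDR = 0.0207) and Tac2 (FDR = 0.0261) were called as well. Over the 55 fits without 1 library Sst gained the call in 26 (FDR from 0.0239 to 0.0497) and Tac2 in 12 (FDR from 0.0261 to 0.0492). The Cort call was lost without KO proestrus mouse 1 (FDR = 0.058) and the Tac1 call without KO diestrus mouse 5 (FDR = 0.05).

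Between pairs of stages, the 4 calls among members in KO were all of proestrus over diestrus, where 34.3% of all genes were called (19.4% higher). The other 5 pairs of KO stages called no member (limma). All genes were called there at 30.7% for estrus over diestrus, 10.4% for diestrus over metestrus, 4.37% for proestrus over metestrus, 0.507% for estrus over proestrus and 0% for estrus over metestrus. At an unadjusted p under 0.05 there were at most 5 members in such a pair. The pairs with 5 were proestrus over metestrus, with 3777 of 16168 genes under that cut, and estrus over proestrus, with 3078. Cort rose by 0.84 (log2, SE 0.23, limma FDR = 0.00333), from 3.87 to 7.29 CPM over 6 diestrus mice to 9.4, 8.72, 7.31 and 12.5 CPM over 4 proestrus mice, so that the nearest values of the groups were 7.29 and 7.31 CPM. Tac1 rose by 0.6 (SE 0.16, FDR = 0.00368), Tac2 by 0.62 (SE 0.21, FDR = 0.0183) and Sst by 0.39 (SE 0.14, FDR = 0.0276), while Npy differed by 0.42 (FDR = 0.0513). Npy was called in 12 of the 55 fits without 1 library, including that without KO estrus mouse 1 (FDR = 0.0157), and Crh was called in KO estrus over diestrus without KO diestrus mouse 6 or KO estrus mouse 3 or 4 (FDR from 0.0412 to 0.0497). Cort and Tac1 kept the proestrus over diestrus call without any 1 library. Sst lost it without KO diestrus mouse 2, 3 or 5 or KO proestrus mouse 1, 2 or 4 (FDR from 0.0552 to 0.22), and Tac2 without KO diestrus mouse 2 or 5 or KO proestrus mouse 1 or 2 (FDR from 0.0505 to 0.121). Without the 8 libraries low in Malat1, 4 of which were KO diestrus mice, none of the 4 calls was made, and the KO stage tests gave FDR = 0.138 for Cort and 0.275 for Tac1.

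In WT females Cort was not called over the stages. WT Cort had medians of 12.1 CPM in proestrus, 14.2 in metestrus, 12.2 in diestrus and 11.9 in estrus (F test over stages, limma FDR = 0.226). Only Tac1 was called over the WT stages (FDR = 0.0402), where 31.5% of all genes were called. Its medians were 9.75 CPM in proestrus, 13.7 in metestrus, 13.8 in diestrus and 11.9 in estrus, so the WT median was lowest in proestrus where the KO median was highest, although the genotype by group test above did not call Tac1. Between pairs of WT stages limma called no member, and at an unadjusted p under 0.05 there were at most 3 members in a pair. That pair was estrus over proestrus, where 3581 of 16168 genes were under the same cut. All genes were called at 22.1% for estrus over diestrus, 9.66% for proestrus over diestrus, 7.24% for diestrus over metestrus, 6.82% for estrus over proestrus, 0.767% for proestrus over metestrus and 0% for estrus over metestrus. Leaving out WT diestrus mouse 1, 2 or 6, the WT diestrus mice that are not low in Malat1, added calls over the WT stages for Vip (FDR from 0.0168 to 0.0392) and Cck, and for Crh without mouse 2 or 6 (FDR = 0.0445 and 0.0402). Cck was also gained without WT estrus mouse 6 or 7 (FDR from 0.00892 to 0.0409 over its 5 fits) and Tac2 without WT proestrus mouse 3 (FDR = 0.0435). The same 3 diestrus mice, each left out, gave calls between WT stages, namely lower Cort (FDR from 0.0238 to 0.0416) and Cck (0.0171 to 0.0333) in diestrus than in metestrus, and lower Vip (0.0115 to 0.0246), higher Cck (0.0137 to 0.0286) and higher Crh (0.029 to 0.042) in proestrus than in diestrus. Without WT diestrus mouse 6 Tac1 proestrus over diestrus (-0.49, FDR = 0.031) and Cort and Vip estrus over diestrus (0.51 and -0.39, FDR = 0.038 and 0.0365) were also called, and without WT proestrus mouse 4 Tac1 proestrus over metestrus (-0.68, FDR = 0.0324). The Tac1 call over the WT stages was lost in 18 of the 55 fits without 1 library (FDR from 0.0503 to 0.136), namely those without WT metestrus mouse 2 or 3, WT diestrus mouse 3, 4 or 5, WT proestrus mouse 1, 2 or 3, WT estrus mouse 4 or 6, WT male 4, KO metestrus mouse 4, KO diestrus mouse 6, KO proestrus mouse 1 or 2, KO estrus mouse 3 or 5, or KO male 5.

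Between females and males no member was called in either genotype (limma), against 0.0309% of all genes in WT and 5.93% in KO. At an unadjusted p under 0.05 there were also 0 of 8 members, against 334 of 16168 genes in WT and 3487 in KO. For Cort the female minus male difference was 0.01 (SE 0.19, FDR = 1) in WT and -0.19 (SE 0.16, FDR = 0.527) in KO. The other members differed by -0.63 to 0.23 in WT and by -0.69 to 0.24 in KO, where Crh gave the lowest value in both.

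Tac1 makes several precursors by splicing, and the exon that carries neurokinin A decides which peptides are made. That exon is shown with the bases that encode neurokinin A in capitals (exon 6, GRCm38, plus strand, chr6:7559099-7559152).
Tac1 exon 6: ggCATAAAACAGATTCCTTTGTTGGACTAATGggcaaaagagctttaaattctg
In the deposited transcript counts, Tac1-205, which holds this exon, made up 75.2% of Tac1 on average (56.9% to 90.6% over 55 libraries) and Tac1-203, which holds it but lacks exon 4, made up 22.9% (8.62% to 37.7%). Tac1-201, which lacks exon 6 and so neurokinin A, averaged 1.64% with a range of 0% to 18.9%. By genotype Tac1-205 was 76.4% ± 5.25 in WT (n = 27) and 74% ± 6.7 in KO (n = 28), closer than the spread between mice. Tac1-201 was 7.21% ± 6.72 in KO metestrus (n = 5) and 0.374% ± 0.749 in WT metestrus (n = 4), and no test was made of these estimated shares, which rest on few reads.

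Cck, the cholecystokinin precursor, split the mice into a low and a high set, each with mice of both genotypes. In 16 libraries it was at 56.2 to 182 CPM and in the other 39 at 237 to 436, with none between. The cut was placed at the widest gap between neighbouring values in a range set by hand, so the 2 sets are a description. The top of the low set, at 163 to 182 CPM, had Cyc1 at 155 to 187 CPM, and the lowest library of the high set had 203. The low set held 9 WT and 7 KO mice, with 4 in WT estrus, 3 in WT diestrus, 2 each in KO metestrus and KO diestrus, and 1 each in WT proestrus, KO proestrus, KO estrus, WT males and KO males. All 12 libraries with Cyc1 under 150 CPM were in the low set. Around group means Cck varied with an SD of 0.8 (log2), above 97.2% of tested genes, and its closest genes were Gm1673, Tmem9b and Cyc1 (Pearson r of 0.97, 0.97 and 0.96 over 55 libraries, as a description). The transcript Cck-205 took 14.1% to 37.1% of Cck in 7 libraries, all in the low set, and at most 2.56% in every other library. Over all mice KO and WT differed in Cck by 0.15 (limma FDR = 0.724). The part of Cck-205 and Cyc1 in this split was not tested.

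**Figure D4:**
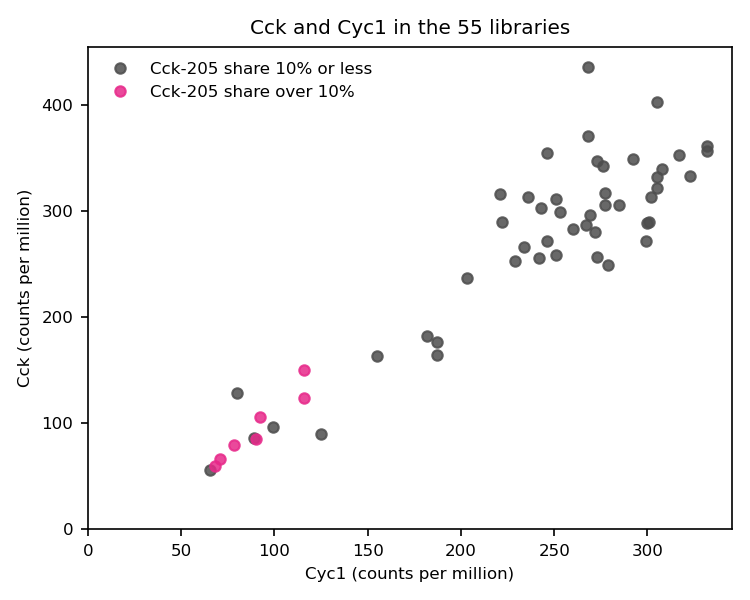
Cck against Cyc1 (CPM, linear axes) in the 55 libraries, with the 7 libraries whose share of the transcript Cck-205 is over 10% in colour. The 16 libraries with Cck at 182 CPM or less include the 12 with Cyc1 under 150 CPM and all 7 coloured ones.

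Around the group means the members' spread on the log2 scale was 0.3 for Sst, 0.31 for Vip, 0.33 for Tac1, 0.41 for Npy, 0.43 for Cort, 0.44 for Tac2, 0.8 for Cck and 1.2 for Crh, against a median of 0.27 over all tested genes. With group means removed, Sst moved with Npy (r = 0.6 over 55 libraries, 0.81 without KO estrus mouse 1), Vip (0.61) and Tac1 (0.62), and against Cck (-0.49). Cort followed Sst more weakly (0.41), and with Npy its r was 0.12, or 0.56 without KO estrus mouse 1. Points of such correlations share a library, its depth and its dissection, and 16 of the 28 pairs of members were positive.

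**Figure D5:**
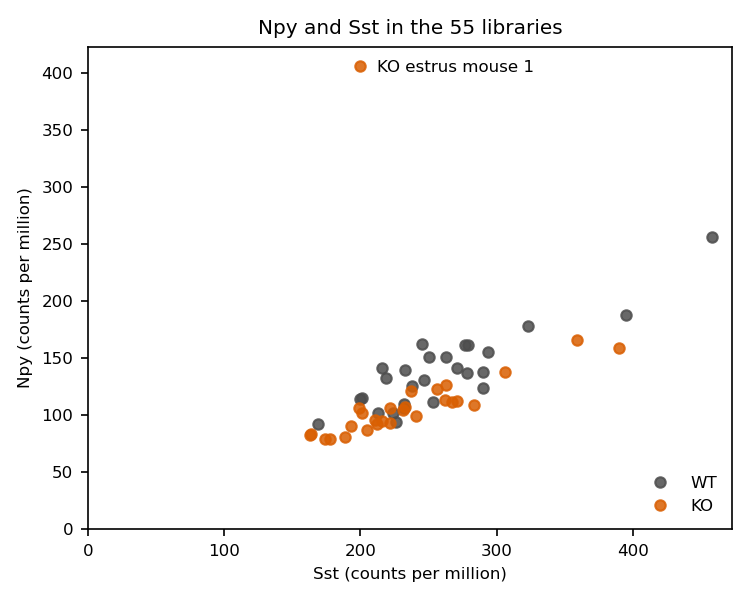
Npy against Sst (CPM, linear axes) in the 55 libraries, coloured by genotype. KO estrus mouse 1, at 406 CPM of Npy, lies away from the band that the other 54 libraries form.

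The tested genes most like each member were, for Cort, Fndc5 (r = 0.67), Chpf (0.66) and Pianp (0.66), and for Sst, Sdf2 (0.89), Tmem50a (0.84) and Erp29 (0.84). For Npy they were Rgs2 (0.83), Tmem251 (0.77) and Cthrc1 (0.77), and for Vip, Nrsn2 (0.64), Scrg1 (0.61) and Sst (0.61). For Tac1 they were Tecr (0.7), Gnptg (0.66) and Tmem9 (0.63), for Tac2 Tnfrsf12a (0.67), S100a10 (0.66) and Trnp1 (0.66), and for Crh Srd5a3 (0.81) and Srsf11 (0.78). All these values include KO estrus mouse 1, the highest library in Npy and Tac2, and none was worked out without it.

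Among the receptors and binding proteins of these peptides, 13 of 20 genes passed the filter and 1 was called between genotypes over all mice, where 3.4% of all genes were called. This was Crhbp, the secreted binding protein of corticotropin-releasing hormone, which ran from 25.5 to 51.4 CPM in WT (median 40.5) and from 21 to 48.7 in KO (median 32.3), a log2 difference of -0.28 (SE 0.06, limma FDR = 0.00313). The medians over the list and over all genes were 0.08 and 0. The 4 tested somatostatin receptors, which also bind cortistatin, were looked at after their values were seen, and their differences of 0.06 for Sstr1, 0.2 for Sstr2, 0.14 for Sstr3 and 0.31 for Sstr4 were not called (FDR from 0.153 to 0.768). Npy1r, the main postsynaptic receptor of neuropeptide Y, was called over the stages in WT (FDR = 0.000249) and KO (FDR = 0.000329), with its WT low in diestrus (15.3 to 28 CPM, median 23) and its WT high in estrus (27.6 to 39.1, median 31.9). Over the stages 7 of the 13 receptor genes were called in WT and 6 in KO, where 31.5% and 36.7% of all genes were called.

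Of 12 genes for peptide processing and dense-core vesicles, all tested, 1 was called between genotypes over all mice, where 3.4% of all genes were called. Pcsk1, the prohormone convertase that makes the early cuts in many precursors, rose in KO by 0.39 (SE 0.11, limma FDR = 0.0331), from 2 to 8.72 CPM in WT (median 4.72) to 2.77 to 17 in KO (median 5.64). Scg2, a granin of dense-core vesicles, was called over the stages in WT (FDR = 0.00117) and KO (FDR = 0.000145), with its lowest WT median in diestrus at 117 CPM and its highest in estrus at 174. In all 4 of these 12 genes were called over the WT stages and 9 over the KO stages, against the same 31.5% and 36.7% of all genes. None of the 11 tested genes of other neuropeptides and none of 12 activity-regulated genes was called between genotypes over all mice (limma). At an unadjusted p under 0.05 there were 2 of each, against 2772 of 16168 genes. Over females Cartpt, 1 of the 11 and named after its value was seen, was lower in KO (log2 -0.44, limma FDR = 0.0441). Nppc, the C-type natriuretic peptide gene, was called over the KO stages (FDR = 0.000176), at 7.72 to 9.82 CPM in proestrus (median 8.97) and 3.03 to 6.2 in estrus (median 4.41).

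Other genes of the cells that make these peptides were examined in the same bulk RNA, which does not count cells. Of 26 interneuron genes 1 was called over all mice, where 3.4% of all genes were called. This was Ndnf, a neurogliaform marker that rose in KO by 0.41 (SE 0.08, limma FDR = 0.000345), from 5.67 to 14.6 CPM in WT (median 11.9) to 8.26 to 20 in KO (median 14.4). The median difference of the 26 was 0.06 and their summed level had medians of 1120 CPM in WT and 1190 in KO. Of 11 tested genes typical of somatostatin interneurons, Crhbp alone was called, and their median difference was 0. Reln, a secreted protein of the same cells, was called over the stages in WT (FDR = 0.000692) and KO (FDR = 7.18e-05). In other cell types C1ql2, a dentate granule gene, differed by -0.59 (SE 0.1, FDR = 0.000151) and Gpc3, a ventral hippocampal marker, by -0.46 (SE 0.13, FDR = 0.0292). Each was the only gene called in its list. The median difference was -0.05 over the 6 dentate granule markers and -0.02 over the 3 tested ventral markers, against 0 over all genes. The part of C1ql2 and Gpc3 in the neuropeptide values was not tested.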

How the data were processed

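RNA from 1 dorsal hippocampus of each of 55 mice was sequenced. The authors aligned the reads to GRCm38 with STAR 2.7.9a and counted unambiguous reads of Ensembl genes by featureCounts 2.0.3, and these deposited counts were the source of all levels and tests. The authors also deposited estimated counts per transcript from Salmon 1.5.2, used here for transcript shares and, rounded to whole numbers, for an alternative fit, and a table of log2 CPM that the authors had normalized, used only as a check. A further 1 column that matches no listed mouse was left out. Of 55774 lines, 287 repeated a gene. Counting error limits the low genes, and totals per library ran from 25881295 to 63547098.

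Genes over 1 CPM in at least 10 libraries, less 5 ribosomal RNA genes, were kept. Scaling was by TMM (edgeR 4.0.16), and limma 3.58.1 was used for the fit (voom with quality weights, 1 mean per group over 10 groups, as the paper's methods describe), and p-values were adjusted by Benjamini-Hochberg over 16168 genes with a call at an FDR of 0.05. The edgeR quasi-likelihood test, DESeq2 1.42.0 and the other alternatives of the closing section were also run. Gene positions are from GENCODE on GRCm38, and promoters from RefSeq.

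The 8 genes and all gene lists were chosen with earlier results of these data known. Named beyond the 8 were the 3 genes most like each (1 of these is not reported here), list genes called between genotypes over all mice, the 2 top genes of a list over the stages (some of them are given), the most abundant marker of each other tissue, and the tested neighbours of Cort.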

Additional observations from a re-analysis of the deposited data

Results flagged for a closer look

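Of the 80 combinations of gene and group examined, 4 held a mouse far from the rest of its group by Dixon's test of the gap to the nearest mouse over the range, and chance alone flags about 1 in 20 groups. KO estrus mouse 1 was such a mouse in Cort, at 2.02 CPM where the other 5 KO estrus mice ran from 4.63 to 6.39, and in Npy, at 406 CPM where they ran from 80.8 to 113. KO estrus mouse 4 had 65.8 CPM of Cck, and the other 5 mice of its group ran from 249 to 316. KO male 6 had 85.1 CPM of Cck against 306 to 436 in the other 6 KO males. Both Cck values belong to the low set of 16 libraries described above.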

How the results depend on the processing

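The Cort difference over all mice stayed between -1.13 and -0.97 under 12 alternatives and between -1.05 and -0.93 without any 1 library, and no called result changed sign. Uncalled differences over all mice that took both signs were Cck (-0.19 to 0.15), Tac2 (-0.07 to 0.18) and Vip (-0.18 to 0.02). Called members other than Cort over all mice (1 in the fit reported) were 0 with no low-count filter, edgeR, DESeq2, no quality weights or without the libraries low in Malat1, and 2 without those low in Cyc1. For 2 alternatives no calls are given. Cnih3 × B6 parents only left 1 WT mouse each in metestrus, proestrus and estrus. Mice of 14 weeks or more left out 3 of the 4 KO proestrus and 4 of the 6 KO diestrus mice. Over females the count was 0 under the settings that gave 0 over all mice and with Salmon counts, and 0 to 1 without 1 library. The count became 2 in diestrus without the libraries low in Cyc1 (0 to 2 without 1 library) and 1 in proestrus at an RNA integrity number of at least 8 (0 to 1). In estrus it was 0 to 1 without 1 library. Over KO stages (2) the count was 0 with no filter, edgeR, no weights or without the libraries low in Malat1, 1 with DESeq2 or Salmon, 4 at RNA integrity of at least 8, and 1 to 4 without 1 library. Over WT stages (1) it was 0 with no filter, edgeR, DESeq2, no weights, age as a covariate, only the groups compared, Salmon, or without the libraries low in Cyc1 or in Malat1, and 0 to 4 without 1 library. Calls between pairs of stages (4) were 2 with no filter, 1 with edgeR or DESeq2, 0 with no weights or without the libraries low in Malat1, 7 at RNA integrity of at least 8, and 2 to 12 without 1 library. No share of all genes is given for the stage tests under these alternatives. A change among the members therefore cannot be told from a change in the calls of all genes. Causes were not tested, and the Cyc1 and Malat1 alternatives were chosen after seeing the data. Genes called over all mice went from 549 to 521 with RLE size factors, 289 with no filter, 153 with edgeR, 187 with DESeq2, 150 with no weights, 269 with Salmon, and 1122 and 297 without the libraries low in Cyc1 and in Malat1. No paired analysis was possible because replicate numbers only name mice. Genotype and parents are partly confounded and depth limits Crh.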
